A study of Homo sapiens with 12 samples.

Results

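WNT ligands, their receptors and their antagonists were followed after siRNA knockdown of PHF19 in triple-negative breast cancer cells. The members were found by gene name: every WNT, FZD, DKK, SFRP, RSPO and DVL gene with a number, together with LRP5, LRP6, LGR4, LGR5, AXIN1, AXIN2, LEF1, TCF7, TCF7L2, RNF43, ZNRF3, ROR1, ROR2, CTNNB1, NKD1 and NKD2. This gave 60 of the 29972 genes in the authors' tables. PHF19 is a Polycomb-like protein that recruits the histone methyltransferase complex PRC2 to chromatin. Messenger RNA was sequenced from MDA-MB-436 cells and from BoM-1833 cells, a derivative of a triple-negative line that was selected for growth in bone. In each line 3 libraries came from cells given a non-targeting siRNA pool (siNT) and 3 from cells given a 1:1 mixture of 2 siRNAs against PHF19 (siPHF19). Both groups of both lines received 5 nM siRNA in total by lipid reverse transfection and were used after 72 h. The labels name different makers for the non-targeting pool and for the PHF19 siRNAs, so the kind of siRNA and the loss of PHF19 cannot be told apart in these groups. Nothing in the labels says that replicates came from separate cultures, so p-values measure only the spread between these libraries, which may be technical.

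Depth was 15.2 to 24.0 M reads in genes per library for MDA-MB-436 and 13.7 to 21.3 M for BoM-1833, and a count of 0 allows up to 3 reads per library. The normalized count of PHF19 was 2942, 3354 and 3763 in the siNT libraries and 340.1, 326 and 315 in the siPHF19 libraries in MDA-MB-436, and 1711, 1684 and 1669 in the siNT libraries and 181, 201 and 173 in the siPHF19 libraries in BoM-1833, so the siRNA labels hold in all 12 libraries. The hormone receptor genes ESR1 and PGR had mean normalized counts of at most 1.72 in any group, and VIM and AXL, which mark mesenchymal-like breast cancer lines, were abundant. ERBB2, on the same list as the hormone receptors, had means of 1056 (siNT) and 1102 (siPHF19) in MDA-MB-436. Its means in BoM-1833 were 1041 and 1120. Of the epithelial markers, KRT8 had means of 1067 to 14311 over the 4 groups and KRT18 of 5003 to 10787. EPCAM had means of 83.6 to 120, and CDH1 of at most 13.6. Of the fibroblast markers, DCN was at 0 in every library and LUM in 11 of 12, while COL1A1 had mean normalized counts of 78.8 (siNT) and 121 (siPHF19) in MDA-MB-436. The BoM-1833 means of COL1A1 were 307 and 474. PDGFRB had means of 9.58 and 21.0 in the first line and of 189 and 251 in the second. Of the leukocyte markers, CD3E was at 0 in every library, while CD14 had means of 93.5 to 305 over the 4 groups and PTPRC of 0 to 18.5. Of the endothelial markers, CDH5 and VWF had means of at most 8.02, whereas PECAM1 reached 27.4 in MDA-MB-436 siNT and 323 in BoM-1833 siNT, with 18.6 and 319 in the matching siPHF19 groups. The part of these genes in the results was not tested. The number of calls over all genes rose on leaving out 1 siNT library in each line. In MDA-MB-436 it was 3801 without siNT replicate 3 in place of 3143, whereas leaving out any other library gave 1767 to 2779, and 12 of the 13 members called there were also called without it, the exception being NKD1. In BoM-1833 this was siNT replicate 1: without it 2046 genes were called changed in place of 1411, whereas leaving out any other library of that line gave 746 to 1049. All 8 members called in BoM-1833 were also called without it.

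WNT proteins are secreted lipid-modified ligands that bind Frizzled receptors together with a co-receptor. With LRP5 or LRP6 as co-receptor, the signal passes through Dishevelled and stops the AXIN and APC complex from destroying β-catenin, which then acts with TCF and LEF factors on target genes. With ROR1 or ROR2, WNT5A-type ligands act without β-catenin on cell polarity and movement. DKK and SFRP proteins block the ligand or the co-receptor, and R-spondins acting through LGR receptors protect Frizzled from removal by the ubiquitin ligases RNF43 and ZNRF3. Several of these genes are known PRC2 targets in stem cells, and DKK1 and WNT signalling have been studied in breast cancer metastasis to bone.

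In control cells of both lines the members with the highest levels were the antagonist DKK1 and signal relay genes, joined in BoM-1833 by LRP5 and FZD2. Levels per exon length are given as reads per kilobase of exon per M reads in genes (RPKM), as mean ± SD over 3 siNT libraries. The antagonist DKK1 had the highest level of all members in both lines, at 68.9 ± 3.3 RPKM in MDA-MB-436, against 105 ± 7.4 RPKM in BoM-1833. CTNNB1, which encodes β-catenin, came next at 40.8 ± 0.492 RPKM in MDA-MB-436, against 66.4 ± 1.73 RPKM in BoM-1833. In BoM-1833 its libraries overlapped with those of LRP5 at 60.7 ± 8.21 RPKM, so their order is not resolved, whereas in MDA-MB-436 LRP5 stood at 11.4 ± 1.23 RPKM, overlapping with LRP6 at 12.4 ± 1.03 RPKM. The Dishevelled adaptors DVL2 and DVL1 came after CTNNB1 in MDA-MB-436 at 26.8 ± 4.35 and 25.7 ± 2.47 RPKM and overlapped with each other. A level of at least 1 RPKM was reached by 29 members in MDA-MB-436 siNT and by 26 in BoM-1833 siNT.

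The lines differed in which members they expressed at all. In BoM-1833, 18 members had 0 reads in all 6 libraries, against 5 in MDA-MB-436, and 4 of them (DKK4, WNT8A, WNT8B and WNT9B) had 0 reads in all 12. The co-receptor ROR2, the receptor FZD9 and the ligands WNT4, WNT6 and WNT7A were at 0 in every BoM-1833 library, while the MDA-MB-436 siNT libraries held 148, 172 and 144 normalized counts of ROR2 and 99.3, 144 and 116 of FZD9. RNF43 went the other way, with 1.09, 0 and 0 normalized counts in MDA-MB-436 siNT and 59.5, 69.2 and 98.3 in BoM-1833 siNT. The antagonist SFRP1 was at 7.48 ± 0.169 RPKM in MDA-MB-436, against 0.168 ± 0.0214 RPKM in BoM-1833. The tables of the lines were normalized separately, and levels between lines were not tested. A mean normalized count under 10 in all 4 groups was found for 17 members: DKK2, DKK4, FZD10, RSPO1, RSPO2, RSPO4, SFRP2, SFRP4, SFRP5, WNT1, WNT11, WNT16, WNT2, WNT3A, WNT8A, WNT8B and WNT9B.

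**Figure D1:**
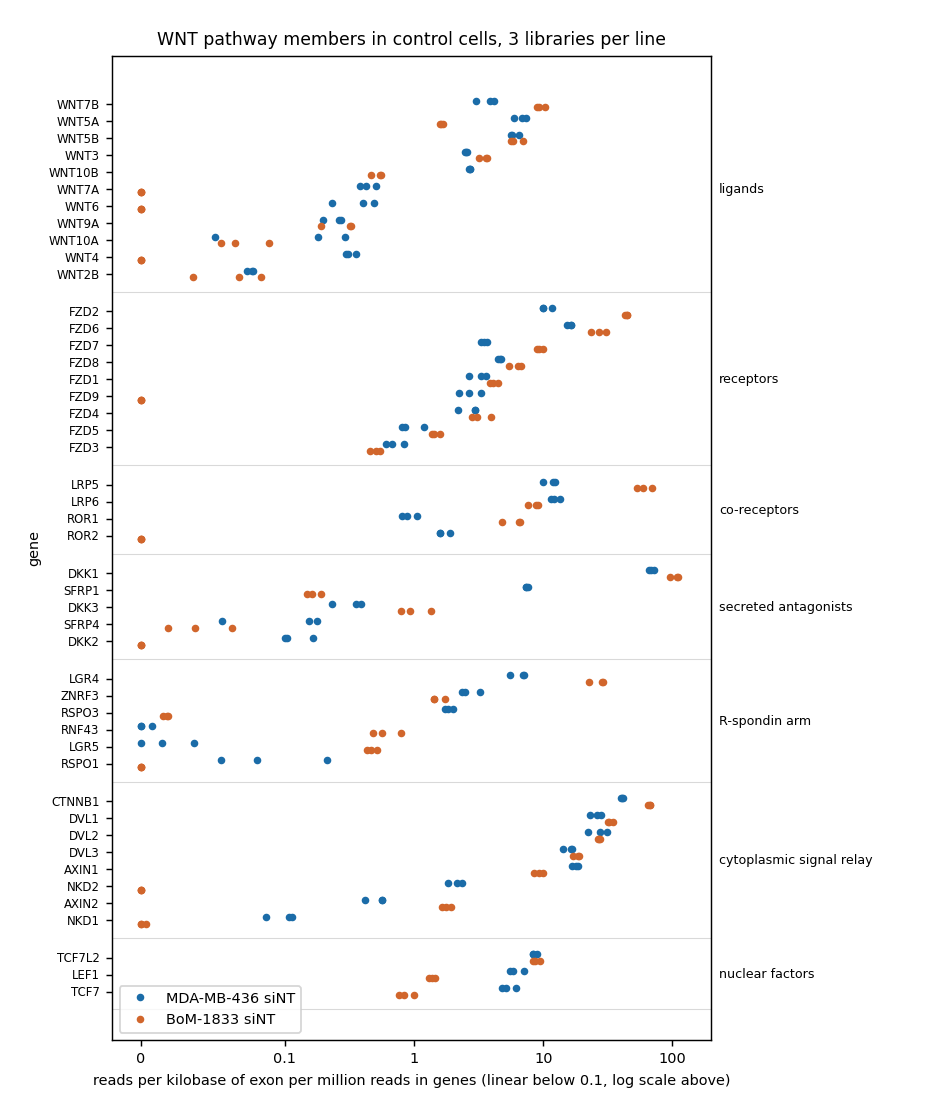
RPKM (horizontal axis, linear below 0.1 and logarithmic above) of the 46 members with a mean of at least 0.1 RPKM in any group, by role; each point is 1 siNT library, blue for MDA-MB-436 and orange for BoM-1833. DKK1 and CTNNB1 lead in both lines, and FZD9, ROR2, NKD2, WNT4, WNT6 and WNT7A sit at 0 in BoM-1833.

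After PHF19 knockdown the members that were called moved in both directions in MDA-MB-436, and those called in BoM-1833 were all higher. Of the 60 members, the authors' test covered 41 in MDA-MB-436, 32 in BoM-1833, 43 in at least 1 line and 30 in both; the others had too few reads for the test's filter. Members with an adjusted p under 0.05 were called. For MDA-MB-436, 13 of 41 members were called (31.7%), 7 higher and 6 lower in siPHF19, beside 22.1% of all genes tested (10.5% higher and 11.5% lower). In BoM-1833, 8 of 32 were called (25%), all 8 higher, beside 10.9% of all genes tested (5.21% higher and 5.72% lower). For BoM-1833 the authors' deposited table called no member lower, and FZD8 was the only lower member with an unadjusted p under 0.05, while edgeR, a joint DESeq2 fit of both lines and DESeq2 without siNT replicate 1 each called 1, FZD8. The median log2 fold change of the members tested was 0.09 in MDA-MB-436, against 0.14 in BoM-1833, beside -0.00 over all genes tested in either line. In all, 19 members were called in at least 1 line.

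**Figure D2:**
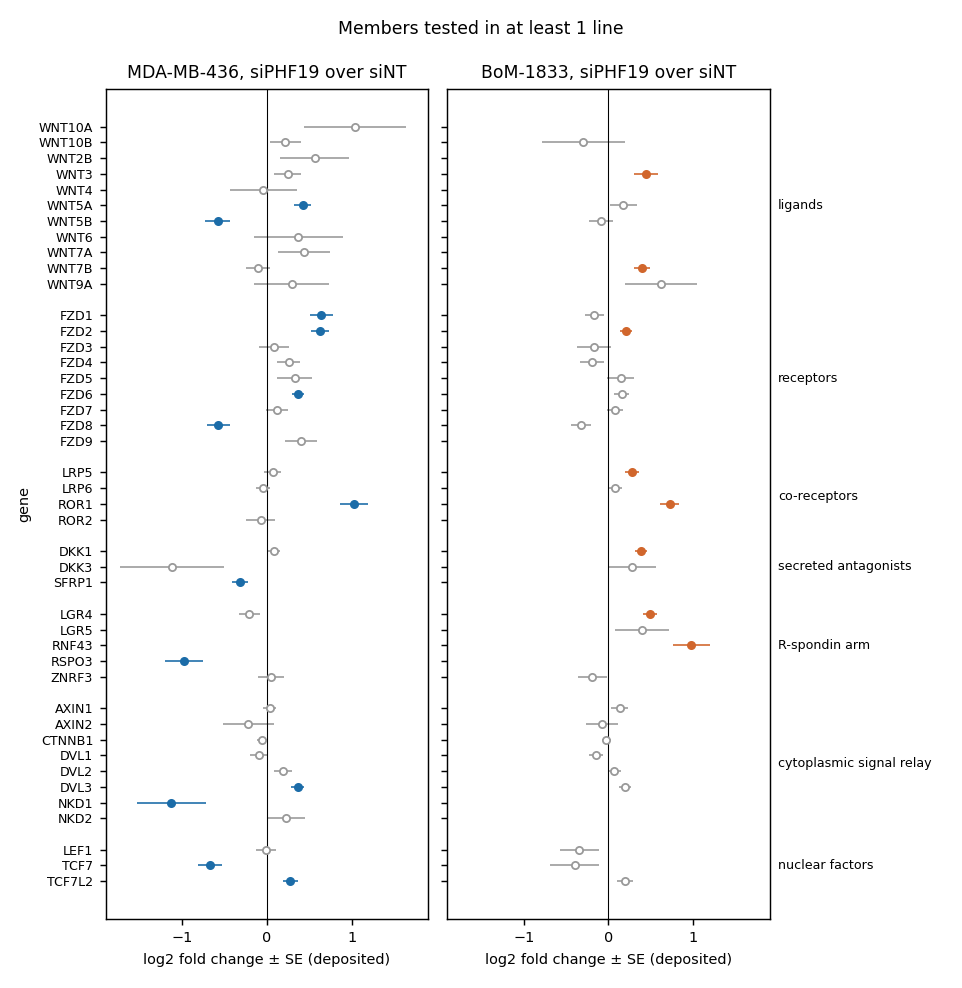
Log2 fold change of siPHF19 over siNT with its standard error, from the authors' deposited tables, for the 43 members tested in at least 1 line, by role; filled points have an adjusted p under 0.05 and a missing point was not tested. ROR1 and FZD2 are filled to the right of 0 in both lines, and the 6 filled points to the left of 0 are all in MDA-MB-436.

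Among the ligands, WNT5A and WNT5B moved in opposite directions in MDA-MB-436. WNT5A, the main β-catenin-independent ligand, had normalized counts of 718, 877 and 803 in the siNT libraries and 1125, 1076 and 1014 in the siPHF19 libraries. The groups did not overlap, and every siPHF19 library was higher. The authors' deposited table gave a log2 fold change of 0.42 (adjusted p = 3.12e-04, SE 0.10). Its relative WNT5B had 323, 277 and 271 in the siNT libraries and 198, 176 and 210.2 in the siPHF19 libraries, with every siPHF19 library below every siNT library. The authors' deposited table gave -0.58 (adjusted p = 7.70e-04, SE 0.15) as its log2 fold change. In BoM-1833 neither passed the test: the authors' deposited table has 0.18 (adjusted p = 0.589, SE 0.15) for WNT5A and -0.09 (adjusted p = 0.815, SE 0.14) for WNT5B on the log2 scale.

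In BoM-1833 the ligands that rose were WNT7B and WNT3, both known for β-catenin signalling in epithelia. WNT7B, with the highest mean level of the ligands there at 9.52 ± 0.691 RPKM in siNT, had normalized counts of 761, 781 and 874 in the siNT libraries and 1133, 1105 and 935 in the siPHF19 libraries. All siPHF19 libraries lay above all siNT libraries. The authors' deposited table gave a log2 fold change of 0.40 (adjusted p = 8.94e-04, SE 0.10). WNT3 had 207, 200.1 and 180.3 in the siNT libraries and 249, 284 and 268 in the siPHF19 libraries, again without overlap between the groups. The authors' deposited table gave a log2 fold change of 0.44 (adjusted p = 0.0216, SE 0.14) for WNT3. That call was lost when siNT replicate 2 or 3 or any 1 of the siPHF19 libraries was left out (adjusted p = 0.058 to 0.212). In MDA-MB-436 neither was called, at -0.10 (adjusted p = 0.661) for WNT7B and 0.24 (adjusted p = 0.3) for WNT3 in the authors' deposited table. Of the 19 ligand genes, 11 were tested in MDA-MB-436, against 6 in BoM-1833, and 2 were called in each. This was 18.2% in MDA-MB-436, beside 22.1% of all genes tested there, and 33.3% in BoM-1833, beside 10.9%.

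The Frizzled receptors, which bind WNT through a cysteine-rich domain outside the cell, held 4 of the 13 calls in MDA-MB-436. FZD1, FZD2 and FZD6 rose and FZD8 fell there, out of 9 receptors tested (44.4% called, beside 22.1% of all genes tested). FZD1 lies on chromosome 7 (91264364 to 91271326, plus strand) of GRCh38 with no overlapping gene, and its normalized counts were 358, 432 and 468 in the siNT libraries and 698, 701 and 563 in the siPHF19 libraries. All 3 siPHF19 libraries were above the highest siNT library. The authors' deposited table gave a log2 fold change of 0.64 (adjusted p = 2.13e-05, SE 0.13) for FZD1. FZD2, on chromosome 17 (44557459 to 44559570, plus strand), also without an overlapping gene, had 403, 392 and 456 in the siNT libraries and 664, 632 and 633 in the siPHF19 libraries. The groups were far apart, at 1.54-fold on the means, and the authors' deposited table gave a log2 fold change of 0.63 (adjusted p = 6.80e-08, SE 0.10). FZD6 had 1156, 1201 and 1192 in the siNT libraries and 1525, 1565 and 1486 in the siPHF19 libraries, a change of 0.37 (adjusted p = 1.34e-05, SE 0.07) on the log2 scale in the authors' deposited table.

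FZD8 was the receptor that went down. Its normalized counts in MDA-MB-436 were 357, 351 and 338 in the siNT libraries and 246, 257 and 199 in the siPHF19 libraries, with every siPHF19 library under every siNT library. The authors' deposited table gave a log2 fold change of -0.57 (adjusted p = 3.54e-04, SE 0.14). In BoM-1833 it had 369.9, 426 and 458 in the siNT libraries and 343, 336 and 322 in the siPHF19 libraries. These groups did not overlap either, and the authors' deposited table has -0.32 (adjusted p = 0.0681, SE 0.12) on the log2 scale, which missed the threshold. It was called there by edgeR's quasi-likelihood test (adjusted p = 0.0444), by a joint DESeq2 fit of both lines (adjusted p = 0.0469), and by DESeq2 without siNT replicate 1, at a log2 fold change of -0.40 (adjusted p = 0.0136). FZD2 was the only receptor called in BoM-1833, of 8 tested (12.5%, near the 10.9% of all genes tested there). It had 1524, 1559 and 1574 in the siNT libraries and 1745, 1814 and 1814 in the siPHF19 libraries, and the authors' deposited table gave a log2 fold change of 0.21 (adjusted p = 0.0269, SE 0.07). That call was lost without siNT replicate 2 or 3 or any 1 siPHF19 library (adjusted p = 0.0679 to 0.208). Frizzled genes are paralogs with similar stretches of sequence. Beyond naming RSEM 1.3.1, the sources used here do not say how reads shared between these genes were assigned.

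ROR1 was the member with the clearest rise in both lines. It encodes an orphan-type receptor tyrosine kinase that serves as a WNT5A co-receptor, is silent in most adult tissues and is expressed in many tumours. In MDA-MB-436 its normalized counts were 103, 109 and 129.6 in the siNT libraries and 238, 226 and 228 in the siPHF19 libraries. In BoM-1833 they were 537, 717 and 719 in the siNT libraries and 1120.4, 1063 and 1062 in the siPHF19 libraries. In each line the siPHF19 libraries were tightly grouped and lay above all siNT libraries, 2.03-fold on the means in MDA-MB-436, against 1.64-fold in BoM-1833. The authors' deposited table gave a log2 fold change of 1.03 (adjusted p = 9.75e-09, SE 0.16) in MDA-MB-436. The authors' deposited table for BoM-1833 gave 0.72 (adjusted p = 1.56e-09, SE 0.11); without siNT replicate 1, whose count was the lowest, the log2 fold change was 0.59 (adjusted p = 3.99e-10). The change of ROR1 did not pass the test of a difference between lines (adjusted p = 0.46).

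ROR1 lies on chromosome 1 (63774022 to 64181498, plus strand) of GRCh38, and ROR1-AS1 and 4 other annotated genes overlap it on the opposite strand. Since CpG-rich DNA is where PRC2 and its Polycomb-like subunits are known to act, its promoter is shown with the 29 CpG dinucleotides in capitals, from 250 bases before to 50 after the start site (RefSeq, GRCh38.p14, chr1:63773767-63774066, plus strand):
ROR1: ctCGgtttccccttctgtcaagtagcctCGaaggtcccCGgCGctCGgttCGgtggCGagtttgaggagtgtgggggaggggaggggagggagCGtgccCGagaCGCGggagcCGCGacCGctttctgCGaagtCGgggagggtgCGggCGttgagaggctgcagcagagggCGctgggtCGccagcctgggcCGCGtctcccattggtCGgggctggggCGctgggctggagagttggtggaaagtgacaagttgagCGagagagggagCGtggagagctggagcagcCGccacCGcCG
A promoter of this length was found in the RefSeq table for 42 of the 60 members. The median member promoter held 29.5 CpG dinucleotides and had a GC content of 72.3%, beside 26 and 65.3% for 10578 promoters of genes tested in at least 1 line and 14 and 58.3% for all 27305 promoters. PHF19 binding or histone marks at these promoters were not measured in this series.

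The other co-receptors changed less. LRP5, the β-catenin co-receptor also known for its role in bone mass, had 4627, 5077 and 6027 in the siNT libraries and 6532, 6472 and 5987 in the siPHF19 libraries in BoM-1833. The highest siNT library overlapped the siPHF19 libraries. The authors' deposited table gave a log2 fold change of 0.27 (adjusted p = 0.0138, SE 0.08). That call was lost in edgeR's quasi-likelihood test (adjusted p = 0.0536) and without siNT replicate 2, siPHF19 replicate 1 or siPHF19 replicate 2 (adjusted p = 0.111 to 0.133). LRP6 was not called in either line, at -0.05 (adjusted p = 0.726) and 0.07 (adjusted p = 0.703) on the log2 scale in the authors' deposited tables. ROR1 was thus the only co-receptor called in MDA-MB-436, of 4 tested, and 2 of 3 were called in BoM-1833. The shares called over all genes tested were 22.1% and 10.9%.

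Among the secreted antagonists, DKK1 was called higher in BoM-1833 and SFRP1 lower in MDA-MB-436. DKK1, which binds LRP5 and LRP6 and blocks them, rose in BoM-1833 from its already high level. Its normalized counts were 3282, 3254 and 2907 in the siNT libraries and 3790.3, 4155 and 4371 in the siPHF19 libraries. All siPHF19 libraries exceeded all siNT libraries, 1.3-fold on the means. The authors' deposited table gave a log2 fold change of 0.38 (adjusted p = 6.47e-06, SE 0.07). In MDA-MB-436 DKK1 had 2262, 2271 and 2410.4 in the siNT libraries and 2283, 2521 and 2549.5 in the siPHF19 libraries, where the groups overlapped. The authors' deposited table has 0.08 (adjusted p = 0.472, SE 0.08) for it there, which was not called. The difference of the DKK1 changes between lines did not pass the threshold (0.30 on the log2 scale, adjusted p = 0.0739).

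SFRP1, which binds WNT ligands outside the cell, was the antagonist called in MDA-MB-436. It had 671, 656 and 679 in the siNT libraries and 548, 543 and 515 in the siPHF19 libraries, without overlap. The authors' deposited table gave a log2 fold change of -0.32 (adjusted p = 0.0052, SE 0.09). That call was lost without siNT replicate 2 or any 1 siPHF19 library (adjusted p = 0.0576 to 0.0963). Of 8 antagonist genes, 3 were tested in MDA-MB-436, against 2 in BoM-1833. DKK3, named after its values were seen, had a mean normalized count of 13.7 in MDA-MB-436, and its siPHF19 libraries lay below its siNT libraries. The authors' deposited table did not call it (log2 fold change -1.12, adjusted p = 0.189, SE 0.61), whereas a joint fit of both lines did. DKK1 is a known β-catenin target, and its promoter was the only 1 of the 42 member promoters that held CTTTGA, the core letters of the TCF and LEF binding site, on either strand. Those letters occurred in 8.65% of the promoters of genes tested and in 13.1% of all promoters of the same length. They are in capitals below, first as TCAAAG, the motif on the minus strand, starting 149 bases before the start site, then as CTTTGA starting 95 bases before it (RefSeq, GRCh38.p14, chr10:52314031-52314330, plus strand):
DKK1: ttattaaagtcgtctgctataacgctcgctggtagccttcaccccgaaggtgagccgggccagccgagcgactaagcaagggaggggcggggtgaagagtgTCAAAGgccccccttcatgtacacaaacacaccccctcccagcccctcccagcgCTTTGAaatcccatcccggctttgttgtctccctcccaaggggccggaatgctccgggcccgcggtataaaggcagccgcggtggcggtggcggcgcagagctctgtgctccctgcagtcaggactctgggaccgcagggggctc
A match in these letters is a description of the sequence, and binding there was not measured.

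The R-spondin arm, which sets how long Frizzled receptors stay on the cell surface, had its calls among LGR4 and RNF43 in BoM-1833, both higher, and at the ligand RSPO3 in MDA-MB-436, which was lower. LGR4, the R-spondin receptor, lies on chromosome 11 (27365961 to 27472775, minus strand) and had normalized counts of 2006, 2489.9 and 2547 in the siNT libraries and 3414, 3279 and 3174 in the siPHF19 libraries in BoM-1833. Every siPHF19 library was above every siNT library. The authors' deposited table gave a log2 fold change of 0.49 (adjusted p = 4.47e-07, SE 0.08); without siNT replicate 1, the lowest library, it was 0.39 (adjusted p = 5.79e-10). In MDA-MB-436 LGR4 had 553, 679.7 and 689 in the siNT libraries and 534, 625 and 503 in the siPHF19 libraries. These groups overlapped, and the authors' deposited table has -0.21 (adjusted p = 0.24, SE 0.12). Without siNT replicate 1 of MDA-MB-436 the decrease there was called (log2 fold change -0.30, adjusted p = 0.0478).

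RNF43, the ubiquitin ligase that removes Frizzled from the membrane and is itself a known β-catenin target, rose alongside LGR4 in BoM-1833. Its normalized counts were 59.5, 69.2 and 98.3 in the siNT libraries and 153, 147 and 144 in the siPHF19 libraries, 1.96-fold on the means. The siNT libraries were scattered and all lay below the siPHF19 libraries. SUPT4H1 overlaps RNF43 on the same strand. The authors' deposited table gave a log2 fold change of 0.98 (adjusted p = 1.68e-04, SE 0.22). In MDA-MB-436 RNF43 was at or under 3 reads in every library and was not tested. Its paralog ZNRF3 was not called, at -0.19 in BoM-1833 and 0.05 in MDA-MB-436 on the log2 scale (adjusted p = 0.62 and 0.861, authors' deposited tables); it was named after its values were seen.

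RSPO3 was the only R-spondin gene with enough reads to be tested, and only in MDA-MB-436. It lies on chromosome 6 (127118604 to 127197765, plus strand) with no overlapping gene, and its normalized counts were 107, 97.7 and 114 in the siNT libraries and 46.9, 58.8 and 54.9 in the siPHF19 libraries. The siPHF19 libraries lay far below the siNT libraries, a 1.98-fold difference on the means. The authors' deposited table gave a log2 fold change of -0.98 (adjusted p = 2.24e-04, SE 0.23). In BoM-1833 it was at 3 reads or fewer in every library. In all, 1 of 3 tested genes of this arm was called in MDA-MB-436 and 2 of 4 in BoM-1833. Over all genes tested, 22.1% and 10.9% were called.

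**Figure D3:**
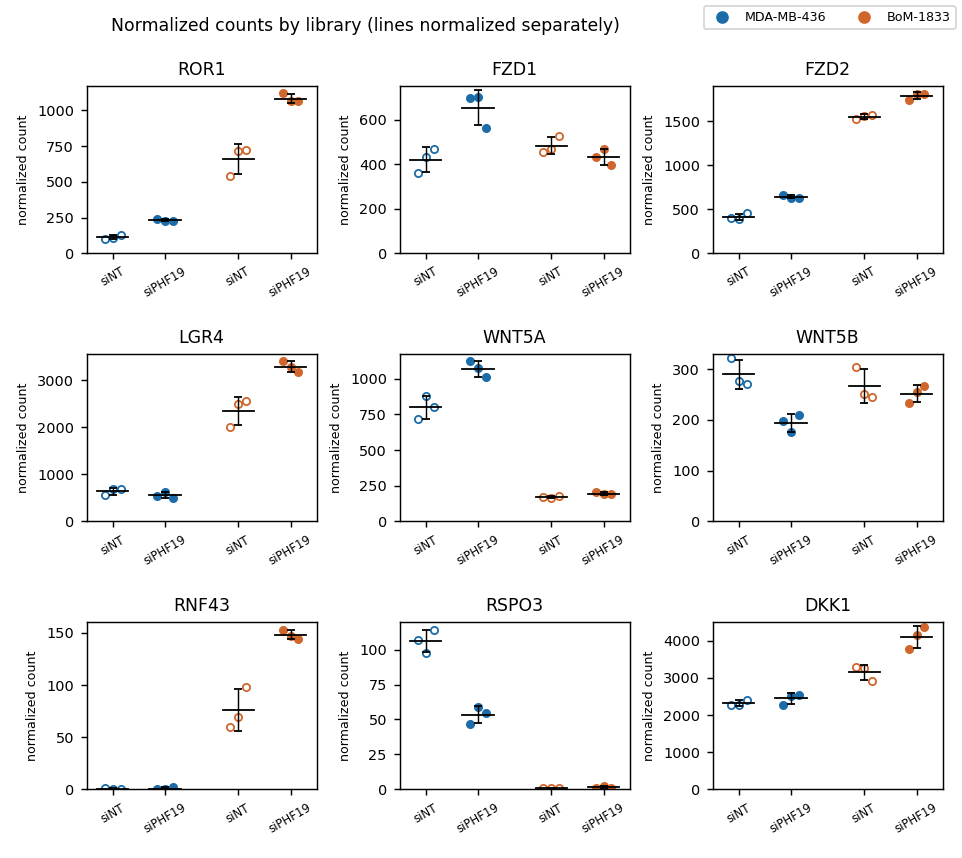
Normalized count (vertical axis, from 0) of 9 members in each of the 12 libraries; open points are siNT, filled points siPHF19, bars the group mean with its SD over 3 libraries, and the lines were normalized separately. ROR1 rises in both lines, FZD1 and WNT5A in MDA-MB-436, LGR4, RNF43 and DKK1 in BoM-1833, while RSPO3 and WNT5B fall in MDA-MB-436.

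In the cytoplasm, DVL3 rose and NKD1 fell in MDA-MB-436, and β-catenin and AXIN1 messenger RNAs were not called in either line. DVL3, 1 of the 3 Dishevelled adaptors, had 1459, 1639 and 1669 in the siNT libraries and 2092, 2017 and 2026 in the siPHF19 libraries, without overlap. The authors' deposited table gave a log2 fold change of 0.36 (adjusted p = 6.53e-05, SE 0.08). In BoM-1833 it had 1529, 1659.9 and 1654 in the siNT libraries and 1882, 1888 and 1766 in the siPHF19 libraries, again without overlap, and the authors' deposited table has 0.19 (adjusted p = 0.0589, SE 0.07), just outside the threshold. A joint fit of both lines called it there (adjusted p = 0.0303). NKD1, a feedback inhibitor that binds Dishevelled, had 28.4, 36.4 and 34.2 in the siNT libraries and 17.4, 11.6 and 16.9 in the siPHF19 libraries in MDA-MB-436. The groups did not overlap, but these are low counts for an exon length of 17105 bases. The authors' deposited table gave a log2 fold change of -1.13 (adjusted p = 0.0298, SE 0.41), and the call was lost when any 1 of the 6 libraries was left out (adjusted p = 0.0652 to 0.235).

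CTNNB1 itself had 6061, 6038 and 5958 in the siNT libraries and 5688, 5893 and 5789 in the siPHF19 libraries in MDA-MB-436, and 8538, 8767 and 8901 in the siNT libraries and 8524, 8728 and 8529 in the siPHF19 libraries in BoM-1833. The authors' deposited tables have -0.06 (adjusted p = 0.533, SE 0.06) and -0.02 (adjusted p = 0.876, SE 0.05) for it on the log2 scale, with small standard errors and no call in either line. DVL1 was not called either, at -0.10 and -0.15 (adjusted p = 0.52 and 0.276, authors' deposited tables). DVL2 was at 0.19 and 0.07 (adjusted p = 0.204 and 0.662, authors' deposited tables), and without siNT replicate 3 it was called in MDA-MB-436 (0.29, adjusted p = 0.00793). AXIN1, the scaffold of the destruction complex, was at 0.03 and 0.13 (adjusted p = 0.836 and 0.505, authors' deposited tables). AXIN2, a widely used readout of β-catenin activity that was named after its values were seen, had 37.1, 48.8 and 48.9 in the siNT libraries and 34.9, 38.9 and 42.2 in the siPHF19 libraries in MDA-MB-436, against 139, 125 and 149.8 in the siNT libraries and 140.1, 149 and 103 in the siPHF19 libraries in BoM-1833. The authors' deposited tables give it -0.22 (adjusted p = 0.666, SE 0.30) and -0.08 (adjusted p = 0.893, SE 0.19). Of the relay genes, 2 of 8 were called in MDA-MB-436 (25%), near the 22.1% of all genes tested there. None of 6 was called in BoM-1833 by the authors' test or by edgeR, and 1, DVL3, had an unadjusted p under 0.05 and was called in the joint fit, as given above.

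Among the nuclear partners of β-catenin in MDA-MB-436, TCF7 fell and TCF7L2 rose. TCF7, which encodes TCF1, had 379, 398 and 469.6 in the siNT libraries and 261, 292 and 226 in the siPHF19 libraries. No siPHF19 library reached the siNT range, and the authors' deposited table gave a log2 fold change of -0.67 (adjusted p = 3.18e-05, SE 0.14). SKP1 overlaps TCF7 on the opposite strand, and the strand setting of the counting is not given in the sources used here. Besides TCF7, ROR1 and RNF43, the called members DKK1, FZD6, FZD8, LGR4, NKD1, SFRP1, TCF7L2, WNT5A and WNT5B also have overlapping annotated genes. The part of these overlaps in the counts was not tested. TCF7L2, which encodes TCF4, had 688, 727 and 675 in the siNT libraries and 872, 825 and 834 in the siPHF19 libraries. The groups did not overlap, and the authors' deposited table gave a log2 fold change of 0.27 (adjusted p = 0.0124, SE 0.09); the call was lost without siNT replicate 2 or any 1 siPHF19 library (adjusted p = 0.0708 to 0.165). Of 3 nuclear factors tested, 2 were called in MDA-MB-436 (66.7%, beside 22.1% of all genes tested there). In BoM-1833, 0 of 3 were called by DESeq2 or edgeR, where 10.9% of all genes tested were called. There 1 nuclear factor, TCF7L2, had an unadjusted p under 0.05 at a log2 fold change of 0.20 in the authors' deposited table (adjusted p = 0.188).

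The tests of both lines covered 30 members, and a call in each was made for 2 of them, FZD2 and ROR1, both higher. Over all genes tested in both lines the share was 5.67%. The difference between lines was tested directly, as BoM-1833 minus MDA-MB-436 over 12286 genes, of which 4.88% passed. It passed for 3 members. FZD1 rose in MDA-MB-436 and had a log2 fold change of -0.17 in BoM-1833 (SE 0.11, authors' deposited table), a difference of -0.81 (SE 0.17, adjusted p = 2.85e-04). Its BoM-1833 normalized counts were 454, 468 and 527 in the siNT libraries and 430.1, 466 and 394 in the siPHF19 libraries. LGR4 went the other way, with a difference of 0.70 (SE 0.15, adjusted p = 2.96e-04). FZD2 rose in both lines and more in MDA-MB-436, with a difference of -0.42 (SE 0.13, adjusted p = 0.0211). The FZD2 difference was lost when any 1 of 6 libraries was left out, namely siNT replicate 1 or 2 or any siPHF19 library of MDA-MB-436, or siPHF19 replicate 1 of BoM-1833 (adjusted p = 0.0589 to 0.222). An unadjusted p under 0.05 was found for 8 members, among them WNT7B (0.50 on the log2 scale, adjusted p = 0.063). WNT7B passed in a DESeq2 interaction fit of all libraries.

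**Figure D4:**
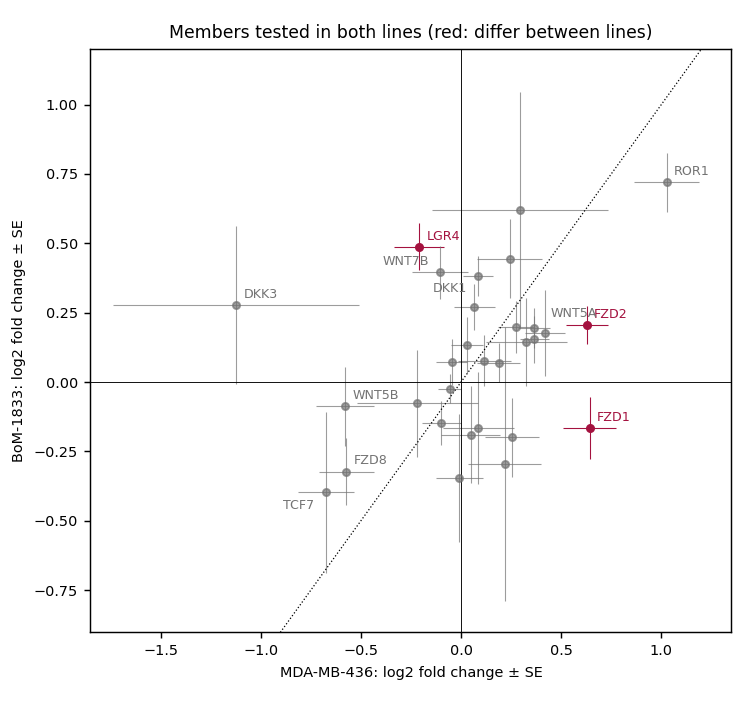
Log2 fold change of siPHF19 over siNT in MDA-MB-436 (horizontal) against BoM-1833 (vertical) for the 30 members tested in both lines, with standard errors from the authors' deposited tables; the dotted line marks equal change. FZD1, FZD2 and LGR4, in red, passed the test of a difference between lines, and ROR1, at the upper right below the dotted line, did not.

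Beyond the members, 111 other genes of the pathway were followed in 6 lists. In MDA-MB-436, 33 of 97 tested were called (34%, beside 22.1% of all genes tested), 14 higher and 19 lower, with a median log2 fold change of -0.00. In BoM-1833, 18 of 87 were called (20.7%, beside 10.9% of all genes tested), 6 higher and 12 lower, with a median of -0.02. Of these, 13 genes were called in both lines, each in the same direction, and 12 of them are described here. At most 87 of the 111 genes were tested in both lines. Of all genes tested in both, 5.67% were called in both in the same direction. DAAM2 and DAAM1, formins that link Dishevelled to the actin cytoskeleton, rose in both lines. The normalized counts of DAAM2 were 68.8, 109 and 95.4 in the siNT libraries and 194, 218 and 183 in the siPHF19 libraries in MDA-MB-436, against 159.6, 225 and 229.9 in the siNT libraries and 398, 364 and 362 in the siPHF19 libraries in BoM-1833. The authors' deposited tables gave DAAM2 log2 fold changes of 1.12 (adjusted p = 4.70e-07, SE 0.20) and 0.88 (adjusted p = 2.25e-07, SE 0.15). DAAM1 had 0.46 and 0.37 (adjusted p = 4.76e-07 and 0.0211, authors' deposited tables). The planar polarity protein gene VANGL1 had 0.26 and 0.22 (adjusted p = 0.0417 and 0.0334, same tables). CELSR1, an atypical cadherin of the same polarity system, fell in both, by 0.40 and 0.41 on the log2 scale (adjusted p = 0.00814 and 0.0112, authors' deposited tables), with overlapping groups in BoM-1833. Of the planar polarity list, 4 rose and 4 fell among 17 tested in MDA-MB-436, and 3 rose and 3 fell of 17 in BoM-1833. The calls of DAAM1, VANGL1 and CELSR1 in BoM-1833, and those of VANGL1 and CELSR1 in MDA-MB-436, were lost in some fits that left out 1 library (adjusted p up to 0.163, 0.258, 0.183, 0.251 and 0.0852).

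In the list of the β-catenin destruction complex and its regulators, the genes called in both lines all fell. They do not all act in the same direction on the complex. CSNK1A1, the kinase that primes β-catenin for destruction, had 4152, 4198 and 4064 in the siNT libraries and 3309, 3120.1 and 3010.0 in the siPHF19 libraries in MDA-MB-436, against 4198, 4427 and 4283 in the siNT libraries and 3479, 3246 and 3167 in the siPHF19 libraries in BoM-1833. No siPHF19 library reached the siNT range in either line, and the authors' deposited tables gave -0.40 (adjusted p = 7.43e-08, SE 0.07) and -0.38 (adjusted p = 5.77e-08, SE 0.06). TNKS2, a tankyrase that marks AXIN for degradation, fell by 0.77 and 0.38 (adjusted p = 4.01e-13 and 6.16e-04, authors' deposited tables). The kinase CSNK1E fell by 0.58 and 0.26 (adjusted p = 2.18e-11 and 0.00297, same tables). The scaffold APC fell by 0.54 and 0.31 (adjusted p = 1.27e-05 and 0.0269, same tables); in BoM-1833 its groups overlapped, and edgeR (adjusted p = 0.062) and 5 of 6 fits without 1 library did not call it. The CSNK1E call in BoM-1833 was lost without siNT replicate 2 or siPHF19 replicate 3 (adjusted p up to 0.0562). Among 24 tested in MDA-MB-436 the list had 4 higher and 5 lower, and among 23 in BoM-1833 it had 0 higher and 4 lower. The shares called were 37.5% and 17.4%, beside 22.1% and 10.9% of all genes tested. The 4 that rose in MDA-MB-436 were GSK3B, BTRC, AMER1 and TNKS, and the list's median log2 fold change was 0.03 in both lines, so the list as a whole had no common direction. The GSK3B and TNKS calls were lost in some fits that left out 1 library.

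Of the commonly cited β-catenin target genes, 1 rose and 8 fell of 22 tested in MDA-MB-436, where 10.5% of all genes tested were called higher and 11.5% lower. In BoM-1833, 3 rose (BMP4, VEGFA and EPHB3) and 5 fell (MYC, JUN, FOSL1, PLAUR and SOX9) of 18, where the shares over all genes were 5.21% and 5.72%. Leaving out 1 library in BoM-1833 lost the call of EPHB3 in 5 of 6 fits, of VEGFA in 3 and of MYC in 1. PLAUR, the urokinase receptor, had 1036, 898 and 868 in the siNT libraries and 576, 670.1 and 654 in the siPHF19 libraries in MDA-MB-436, against 2038, 1854 and 1933 in the siNT libraries and 1253, 1339 and 1255 in the siPHF19 libraries in BoM-1833. The authors' deposited tables gave PLAUR -0.56 (adjusted p = 3.28e-06, SE 0.11) and -0.60 (adjusted p = 6.49e-14, SE 0.07), and no library of 1 group reached the range of the other. The transcription factor gene SOX9 fell by 0.72 and 0.26, FOSL1 by 0.31 and 0.41 and JUN by 0.33 and 0.29 on the log2 scale in the authors' deposited tables, with adjusted p between 3.20e-13 and 0.00281. The SOX9 call in BoM-1833 was lost without siPHF19 replicate 1 or 2 (adjusted p up to 0.0685). JUN, FOSL1 and PLAUR are also known AP-1 pathway genes, so this list is not particular to β-catenin. Of the nuclear cofactors, 3 rose and 1 fell of 17 tested in MDA-MB-436 (23.5% called, near the 22.1% of all genes tested there). The calls of PYGO2 and CTNNBIP1 (higher) and TLE3 (lower) were lost in some fits that left out 1 library. That of TLE4 (higher) was kept. In BoM-1833 no gene of the nuclear cofactor, secretion and extracellular regulator lists was called in the authors' deposited table or by edgeR, with 2 of 16, 0 of 5 and 1 of 8 at an unadjusted p under 0.05. Over all genes tested in BoM-1833, 10.9% were called. Without siNT replicate 1 of BoM-1833, DESeq2 called the cofactor genes CTBP1 and CTNNBIP1 and the secretion gene TMED5.

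**Figure D5:**
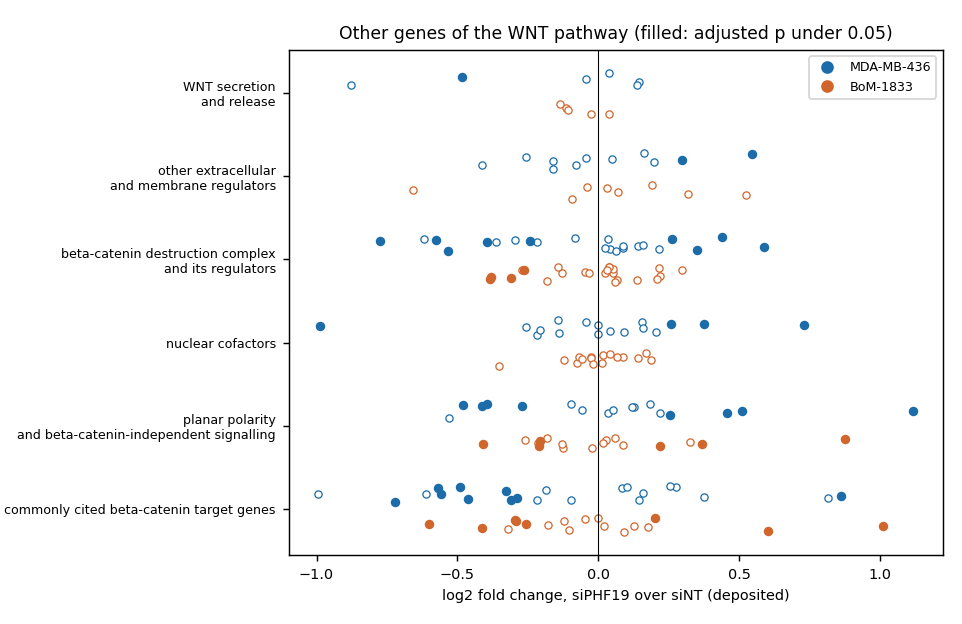
Log2 fold change of siPHF19 over siNT (authors' deposited tables) of the other pathway genes by list, 97 tested in MDA-MB-436 (blue) and 87 in BoM-1833 (orange); filled points have an adjusted p under 0.05, and points are spread vertically only for display. Filled points lie on both sides of 0 in MDA-MB-436. In the list of the destruction complex and its regulators, all 4 filled points of BoM-1833 lie below 0.

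The hexamer AAACTG, noted earlier in the 3′ UTRs of genes lower in siPHF19 in these data, was looked for in the longest annotated 3′ UTR of each member. Since it was noted in these same data, its share among members called lower is a description and no independent test. It was present in 5 of 6 members called lower in MDA-MB-436 (83.3%), 4 of 7 called higher (57.1%) and 15 of 28 not called (53.6%). Over all genes tested in that line the shares were 55%, 48.7% and 45.5%. In BoM-1833 it was present in 3 of 8 members called higher (37.5%) and 16 of 24 not called (66.7%), beside 39% and 46.6% over all genes and 66.8% of all genes called lower. Longer 3′ UTRs hold any hexamer more often, and the median length was 1657 bases for the 6 lower members and 2643 for the 7 higher ones in MDA-MB-436. The 28 members not called there had a median of 1385.5 bases. Over all genes tested in that line it was 1232 bases for those called lower, 1998 for those called higher and 1329 for those not called. In BoM-1833 the medians over all genes were 1788 bases for those called lower, 1497 for those called higher and 1358 for those not called. The members called higher in BoM-1833 had a median of 2015 bases and those not called 1800.5. The part of length in these shares was not tested. Sites of members that fell in MDA-MB-436 are shown with the hexamer in capitals, from RSPO3 (chr6:127196674-127196695, plus strand, 675 bases after the stop codon), TCF7 (chr5:134146583-134146604, plus strand, 387 bases after the stop codon, the first of 2), WNT5B (chr12:1646965-1646986, plus strand, 721 bases after the stop codon) and NKD1 (chr16:50634519-50634540, plus strand, 746 bases after the stop codon, the first of 4), all in GRCh38:
RSPO3: gctttacaAAACTGtgaaggat
TCF7: tctcatggAAACTGgccagggg
WNT5B: aaagccctAAACTGaatgtttg
NKD1: cattttggAAACTGctagggag
Of the members called higher in MDA-MB-436, FZD1, FZD2, TCF7L2 and WNT5A also hold the hexamer, and ROR1, DVL3 and FZD6 do not. FZD8, called lower there, does not hold it, and SFRP1, also called lower there, holds it at 1 site that is not shown. The match is a description of the sequence, and its part in any change was not tested.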

How the data were processed

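The authors deposited 1 table per line. The submitters' processing notes name STAR, RSEM 1.3.1, DESeq2 1.46.0 and hg38; the annotation and the strand setting are not given in the sources used here. Library values are a deposited signal: counts divided by a size factor. Whole reads were recovered for 100% of values (tolerance 0.02). The deposited log2 fold changes, Wald statistic (a score) and p-values (Benjamini-Hochberg adjusted over each table) gave the calls at 0.05. The difference between lines was z, the difference of log2 fold changes over its standard error, with adjustment over 12286 genes.

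Alternatives used DESeq2 1.42.0 and edgeR 4.0.16 on recovered reads, checked on simulated data: TMM, other filters, a joint fit, a replicate block, a minimum fold change, leaving out each library. RPKM used union exon lengths of GENCODE 29 (GRCh38). The 3′ UTRs are from GENCODE 29 and the promoters from RefSeq. Counts have no molecular identifiers, so the floor of 3 reads covers counting error only.

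The members and gene lists were chosen with earlier results of these data known. Named are members called in at least 1 line or differing between lines, the 5 uncalled tested members with the highest RPKM, up to 12 other pathway genes called in both lines, and PHF19.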

Additional observations from a re-analysis of the deposited data

Results flagged for a closer look

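The log2 fold changes of 3 members differed between MDA-MB-436 and BoM-1833 by the z test of the difference, given as BoM-1833 minus MDA-MB-436. For FZD1 the difference was -0.807 (adjusted p = 2.85e-04), from 0.64 in MDA-MB-436 to -0.17 in BoM-1833. It kept its direction and stayed past the threshold in all 15 alternatives, between -0.90 and -0.71. For LGR4 it was 0.696 (adjusted p = 2.96e-04), from -0.21 and 0.49, and it also passed in all 15, between 0.59 and 0.79. For FZD2 it was -0.422 (adjusted p = 0.0211), from 0.63 and 0.21, and it missed the threshold in 7 of 15 alternatives (adjusted p up to 0.332).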

How the results depend on the processing

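No result reversed its direction past a threshold in any alternative. Of 21 calls of members, 15 were kept under every alternative without a minimum fold change; the 6 others were NKD1, SFRP1 and TCF7L2 in MDA-MB-436 and FZD2, LRP5 and WNT3 in BoM-1833. DESeq2 on the recovered reads, added after the data had been seen, called the same 13 and 8 members, and edgeR called 13 (all shared) and 8 (7 shared). With a minimum absolute log2 fold change of 0.5 the members called were 8 in MDA-MB-436, against 2 in BoM-1833, and the other pathway genes 13 and 4. Leaving out 1 library gave 10 to 13 members in MDA-MB-436, against 5 to 9 in BoM-1833 (5 without siNT replicate 2, siPHF19 replicate 1 or siPHF19 replicate 2), 24 to 40 and 9 to 24 other pathway genes, and 2 to 5 members that differed between lines (5 without siNT replicate 1 of BoM-1833). These fits have fewer libraries. No scaling moved the median log2 fold change of all genes by over 0.1.

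Replicate numbers did not pair the libraries: deviations of same-numbered libraries correlated at -0.233, 0.0387 and -0.269 in MDA-MB-436 and at -0.307, -0.117 and -0.199 in BoM-1833, and 2 of 12 libraries, siNT and siPHF19 replicate 2 of MDA-MB-436, correlated best with their own number. With the replicate number as a block, 10 and 5 members, 23 and 8 other pathway genes and 2 members differing between lines were called.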
